A study of Mus musculus with 2 samples.

Results

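The small heat shock proteins and their cochaperone Bag3 were described here in skeletal muscle, as 8 genes: Hspb1, Hspb2, Hspb3, Hspb6, Hspb7, Hspb8, Cryab and Bag3. They were taken by gene name from a table of 34745 genes, and each had 1 line there. Total RNA of mouse gastrocnemius, the large muscle of the calf, was sequenced in 2 libraries. Both genotypes carry the floxed Tecrl allele: TECRLflox/flox mice gave the control library, and TECRLscko mice, whose Cre is driven from the Pax7 locus, gave what is called the knockout library here. Pax7 marks satellite cells, the stem cells of muscle, and since this Cre is not inducible, fibers formed from Pax7-expressing cells can carry the deletion too. The labels give no age, sex, injury, time or number of mice behind a library. Each group had 1 library and so no replicate: no p-value is given, each interval is a 95% interval of counting error only, and each difference is between these 2 libraries.

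Small heat shock proteins are chaperones that work without ATP. Through a shared alpha-crystallin domain they hold unfolding proteins until HSP70 chaperones can refold them, and in muscle they gather on Z-discs, titin and desmin filaments. Bag3 joins HSP70 to Hspb8 and sends damaged Z-disc proteins such as filamin C to autophagy, a route called chaperone-assisted selective autophagy. In humans, mutations of CRYAB, BAG3 and HSPB8 cause muscle disease.

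The libraries held 19281017 counts (control) and 16946124 counts (knockout), and 12559 genes whose mean level reached 1 CPM, the count scaled to library size, were compared, all 8 members among them. Of these 12559 genes 6049 lay above the control and 6510 below. Tecrl itself had 3 counts in the control and 4 in the knockout library, so the deletion could not be checked in whole muscle. Fast skeletal muscle genes dominated both libraries, with Myh4, the fastest myosin, at 28231 CPM and 28026 CPM. Of 10 cardiac markers Nppa, Nppb and Myl7 had 0 counts in both, Ryr2 and Tnni3 had at most 11, and the other 5 had between 29 counts (Sln) and 97 counts (Myl4). Slow fiber genes were higher in the knockout library: all 14 were above the control, their median log2 ratio was 0.85, and their summed level was 4344 CPM in the control against 6554 CPM in the knockout library. The 15 fast fiber genes had a median of -0.28, or -0.067 after the length and GC correction described next (slow genes 0.87). Before that correction 13 fast fiber genes lay below the control, and 2 myosin genes of the list lay higher, Myh2 (0.70) and Myh1 (0.39). Ratios also moved with the transcripts themselves: over 12524 genes the Spearman correlation of the log2 ratio was 0.40 with transcript length and -0.43 with GC content, a description across genes, which are not independent. Each member is therefore also given after a correction for both trends. After it the correlation was -0.084 with length and -0.0024 with GC content, so a small length trend of the opposite sign remained. In whole muscle, fewer cells of a type and less RNA per cell cannot be told apart.

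The promoter windows of the members are shown first, because heat shock factors bind repeats of a GAA unit and several members are known heat shock genes. RefSeq windows (GRCm38.p6) of 300 bases, from 250 before to 50 after a start site, were at hand for 6 of the 8 members, and not for Hspb2 and Cryab; Hspb6 had 2 windows. Both strands were searched for paired units in either arrangement, GAANNTTC and TTCNNGAA, which both read the same on the other strand. The first was found in 5 of the 7 windows, 1 each of Hspb1, Hspb3, Hspb6, Hspb8 and Bag3, against 7.86% of 32851 windows in the genome. It was not in the window of Hspb7 or in the other window of Hspb6. The second was in no member's window, against 8.52% of all windows. The same 8 bases, GAAGTTTC, stood in 4 of the members' windows, against 1.21% of all; this run was chosen after the matches had been seen.

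The Hspb6 window at the start of the coding transcript (chr7:30553051-30553350, plus strand) is printed whole because Hspb6 differed most between the libraries. For Hspb1 (chr5:135887766-135887845, plus strand), Hspb8 (chr5:116422819-116422898, minus strand) and Bag3 (chr7:128523553-128523632, plus strand) 80 bases around the shared run are printed. All are written 5′ to 3′ on the gene's strand, with GAANNTTC matches in capitals.
Hspb6: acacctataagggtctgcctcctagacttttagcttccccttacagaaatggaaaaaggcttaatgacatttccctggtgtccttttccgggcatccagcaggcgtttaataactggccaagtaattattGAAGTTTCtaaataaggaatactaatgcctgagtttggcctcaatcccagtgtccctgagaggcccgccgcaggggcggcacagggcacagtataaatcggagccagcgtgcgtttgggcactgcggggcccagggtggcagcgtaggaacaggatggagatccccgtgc
Hspb1: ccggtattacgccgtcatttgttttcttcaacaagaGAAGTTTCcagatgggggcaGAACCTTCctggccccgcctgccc
Hspb8: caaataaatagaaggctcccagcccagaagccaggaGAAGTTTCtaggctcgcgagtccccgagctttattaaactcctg
Bag3: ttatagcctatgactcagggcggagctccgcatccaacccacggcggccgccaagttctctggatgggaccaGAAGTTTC

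In Hspb6 the run began 120 bases before the start site and in Hspb1 117 bases before it. In Hspb8 and Bag3 it lay in the transcribed part, beginning at base 3 and base 43 after the start. TATAAA was found in the Hspb6 window, 29 bases before the start, and in the Hspb3 window, against 13.6% of all windows, and a CArG box, the site of serum response factor, in no member's window, against 1.63% of all. Such matches describe letters and not binding. Hspb6, Hspb8, Hspb1 and Bag3 shared the run and differed in their ratios, as described next.

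The 8 genes did not move as one. Hspb6 was 2.49-fold higher in the knockout library and Hspb7 1.41-fold higher, while Hspb8 was 1.52-fold lower and Hspb2 1.39-fold lower. Hspb3, Bag3, Hspb1 and Cryab lay within 1.17-fold of the control, all on the lower side; after the length and GC correction Hspb1, Cryab and Bag3 were on the higher side. The median log2 ratio of the 8 members was -0.17, beside -0.016 over all compared genes, and it turned to 0.062 after that correction. At least 1.5-fold higher was 1 member, Hspb6, as were 9.24% of all compared genes, and at least 1.5-fold lower was 1 member, Hspb8, as were 3.88%. After the correction 2 members were at least 1.5-fold higher, Hspb6 and Hspb7, against 4.62% of all genes, and none was lower, against 3.68%. At 2-fold, Hspb6 remained on the higher side, against 2.28% of all genes, and no member was lower, against 0.796%. Among 8 genes, 1 gene in a direction is the smallest count above none, and is no result about the set.

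Hspb6, also called HSP20, is a small heat shock protein of muscle that protein kinases A and G phosphorylate; in smooth muscle its phosphorylation goes with relaxation, and in heart it protects against stress. Hspb6 (ENSMUSG00000036854, chromosome 7, 30552178 to 30555443, GRCm38, plus strand, protein-coding) had 7362 counts in the control and 15376 counts in the knockout library. The level was 373 CPM in the control against 929 CPM in the knockout library, a fold of 2.49 with an interval of 2.42 to 2.56. By CPM, Hspb6 moved from position 241 to position 87 among all genes of its library. Its log2 ratio of 1.32 was exceeded by 108 of the 12559 genes and became 1.54 after the length and GC correction. The Hspb6 model overlaps the ends of both neighbors, Proser3 and Lin37, which had 80 and 89 counts in the control and 80 and 72 in the knockout library, beside the 8014 counts by which the libraries differed at Hspb6.

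Hspb7, the cardiovascular small heat shock protein, binds filamin C and in mice is needed in heart and skeletal muscle. Hspb7 (ENSMUSG00000006221, chromosome 4, 141420779 to 141425311, plus strand) had 8971 counts and 10607 counts, or 455 CPM in the control against 641 CPM in the knockout library. The fold of 1.41 (1.37 to 1.45) lay just under the 1.5-fold rule, and after the correction, at a log2 ratio of 0.68, just over it. In the uncorrected counts Hspb6 and Hspb7 alone among the members were above the control, and both lay over the middle 50% of all compared genes, which ran from -0.21 to 0.24 on the log2 scale. Slow fiber genes stood higher in the same library, with Myh7, the slow myosin, at 437 CPM in the control against 910 CPM in the knockout library, and Tnnt1, slow troponin T, at 114 and 240 CPM; their part in the Hspb6 and Hspb7 ratios was not tested.

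Hspb8, also called HSP22, is the partner that Bag3 binds in the autophagy complex. Hspb8 (ENSMUSG00000041548, chromosome 5, 116408491 to 116422864, minus strand) had 11789 counts in the control and 6520 counts in the knockout library. At 597 CPM against 394 CPM it was 1.52-fold lower in the knockout library, with an interval of 1.47 to 1.56, so it stood on the edge of the 1.5-fold rule. Its log2 ratio of -0.60 became -0.39 after the correction, inside 1.5-fold. Among the 12559 genes, 451 had a lower log2 ratio than Hspb8.

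Bag3 (ENSMUSG00000030847, chromosome 7, 128523616 to 128546981, plus strand) had 4197 counts and 3078 counts, or 213 CPM in the control against 186 CPM in the knockout library. That is 1.14-fold lower in the knockout library, with an interval of 1.09 to 1.20, and the log2 ratio of -0.19 became 0.0025 after the correction. Hspb8 thus differed more than its partner: per length, the level of Hspb8 was 3.96 times that of Bag3 in the control (3.83 to 4.11) and 2.99 times in the knockout (2.86 to 3.12).

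Hspb2 and Cryab are neighbors that are read in opposite directions from a shared stretch of chromosome 9. Hspb2, the myotonic dystrophy kinase-binding protein, forms complexes with Hspb3, and Cryab, alpha-B crystallin, guards desmin and titin. Hspb2 (ENSMUSG00000038086, 50751072 to 50752354, minus strand) had 1598 counts and 961 counts, or 81.0 CPM in the control against 58.1 CPM in the knockout library, and was 1.39-fold lower there (1.29 to 1.51). Cryab (ENSMUSG00000032060, 50752758 to 50756633, plus strand) had 14409 counts and 11276 counts, or 730 CPM and 681 CPM, and was 1.07-fold lower (1.05 to 1.10). The neighbors did not keep their ratio: per length, the level of Cryab was 6.24 times that of Hspb2 in the control (5.93 to 6.58) and 8.12 times in the knockout (7.60 to 8.68). In the deposited coordinates the pair does not overlap, while GENCODE M21 has Cryab transcripts that start inside Hspb2 on the other strand; the strand setting of the counting is not given in the sources used here, so reads in that stretch are uncertain. After the length and GC correction the log2 ratio was -0.21 for Hspb2 and 0.15 for Cryab.

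Hspb3 (ENSMUSG00000051456, chromosome 13, 113662896 to 113663676, minus strand), the partner of Hspb2, was the least abundant member, with 470 counts and 338 counts. It stood at 23.8 CPM in the control against 20.4 CPM in the knockout library, 1.17-fold lower with an interval of 1.01 to 1.35. The log2 ratio of -0.22 became -0.014 after the correction. Hspb1 (ENSMUSG00000004951, chromosome 5, 135887919 to 135889563, plus strand), the mouse HSP25, which binds actin filaments and answers oxidative stress, had 2804 counts and 2117 counts. At 142 CPM against 128 CPM it was 1.11-fold lower (1.05 to 1.18), and after the correction its log2 ratio of -0.15 turned to 0.12. For Hspb3, Hspb1, Cryab and Bag3 the counting intervals exclude equality, but they hold no spread between mice.

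**Figure D1:**
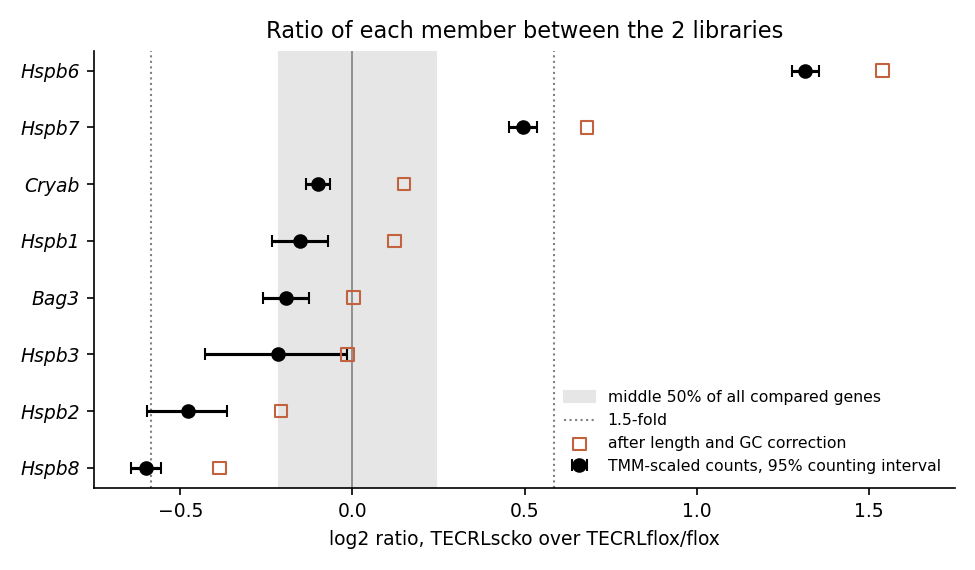
Log2 ratio of each member, TECRLscko over TECRLflox/flox, from 1 library per group. Black points are TMM-scaled counts with 95% counting intervals, open squares are values after the length and GC correction, the gray band holds the middle 50% of all compared genes (-0.21 to 0.24) and dotted lines mark 1.5-fold; Hspb6 lies at 1.32 and Hspb8 at -0.60, and the squares of Hspb1, Cryab and Bag3 lie on the other side of 0 from their points.

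Levels can be compared between genes only per length, here as CPM per kilobase of the longest coding transcript. In the control the order was Cryab (654 CPM per kilobase), Hspb8 (329), Hspb6 (274), Hspb7 (164), Hspb1 (153), Hspb2 (105), Bag3 (83.0) and Hspb3 (30.5). In the knockout library it was Hspb6 (681 CPM per kilobase), Cryab (610), Hspb7 (231), Hspb8 (217), Hspb1 (138), Hspb2 (75.1), Bag3 (72.6) and Hspb3 (26.1). Hspb6 thus passed both Hspb8 and Cryab, Hspb7 passed Hspb8, and the 4 lowest genes kept their order.

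The counting intervals separated all neighbors in these orders but 1 pair. Hspb2 and Bag3 in the knockout library had a per-length ratio of 1.03 with an interval of 0.962 to 1.11, whereas in the control it was 1.26 (1.19 to 1.34). Close but apart were Hspb7 and Hspb1 in the control, with a ratio of 1.07 (1.03 to 1.12), and Hspb7 and Hspb8 in the knockout library, also with a ratio of 1.07 (1.03 to 1.10). Between Cryab and Hspb6 the order turned, with Cryab at 2.39 times the level of Hspb6 in the control (2.32 to 2.46) and 0.895 times in the knockout (0.873 to 0.917).

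**Figure D2:**
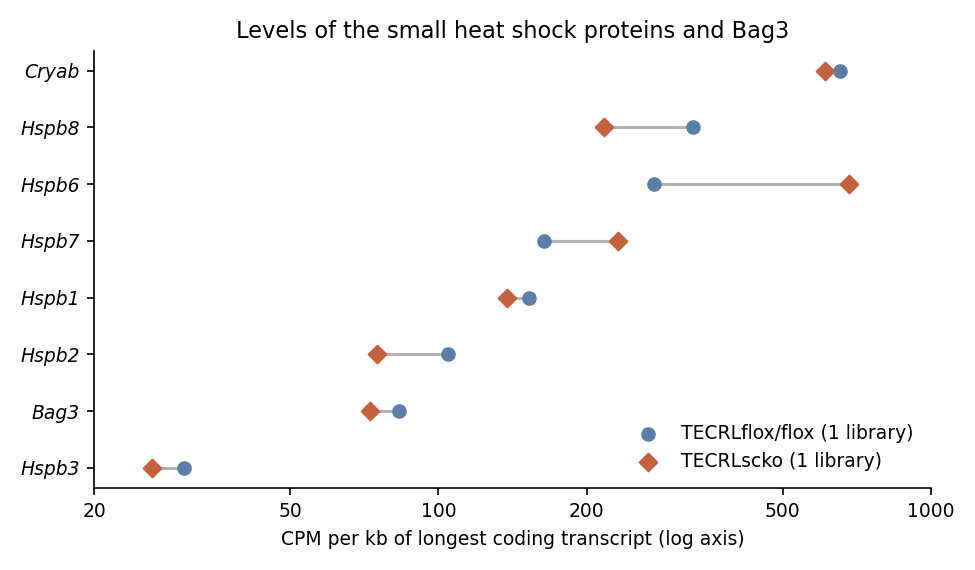
Level of each member in CPM per kilobase of its longest coding transcript, on a log axis, with 1 point for each library (circle, TECRLflox/flox; diamond, TECRLscko). Hspb6 moves from 274 to 681, past Hspb8 and Cryab, and the other shifts are shorter. With the deposited FPKM, which use another gene length, Hspb6 stays below Cryab in the knockout library (196 against 562 FPKM).

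The order depends on the length used. The authors' deposited FPKM, which divide by a gene length of their own, put Cryab first in both libraries, at 631 FPKM in the control and 562 FPKM in the knockout library. On that scale Hspb6 stood at 82.6 FPKM in the control, place 6 of 8, and at 196 FPKM in the knockout library, place 3, since its implied length of 4.62 kilobases is longer than its coding transcript of 1363 bases and than the whole gene. Hspb8 had 244 and 154 FPKM, Hspb7 had 168 and 226 FPKM, and Hspb2 had 98.7 and 67.5 FPKM.

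Together the 8 genes took 51600 counts in the control, 0.268% of the library (95% Wilson interval 0.265 to 0.270), and 50273 counts in the knockout library, 0.297% (0.294 to 0.299). After TMM scaling the sum was 1.16-fold higher in the knockout library (1.15 to 1.18). That gain did not hold without Hspb6: the other 7 genes had 0.229% of the control and 0.206% of the knockout counts, and their sum was 1.06-fold lower (1.05 to 1.08). Hspb7 was higher too, and without both Hspb6 and Hspb7 the sum of the other 6 genes was 1.22-fold lower (1.20 to 1.24). Each of these 6 lay below the control before the length and GC correction, so a lower sum followed from the choice. After that correction Hspb1, Cryab and Bag3 lay above the control. Of the summed CPM per kilobase of the members, Hspb6 took 15.3% in the control and 33.2% in the knockout library. The share of Cryab went from 36.5% to 29.7% and that of Hspb8 from 18.4% to 10.6%. These shares also depend on the length used: of the summed deposited FPKM, Hspb6 took 5.82% in the control and 14.3% in the knockout.

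**Figure D3:**
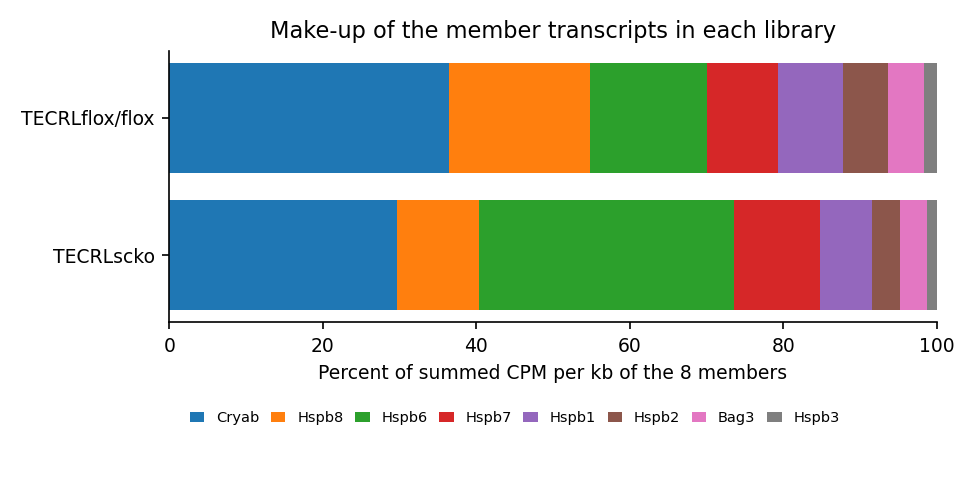
Share of each member in the summed CPM per kilobase of the 8 members, as a percentage, in the TECRLflox/flox and the TECRLscko library (1 each). The Hspb6 segment widens from 15.3% to 33.2%, and the Hspb8 segment narrows from 18.4% to 10.6%; with the deposited FPKM, which use another gene length, Hspb6 goes from 5.82% to 14.3%.

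In the rest of the chaperone system most genes lay within 1.5-fold of the control. Of 51 other chaperone, BAG and heat shock factor genes compared, 3 were at least 1.5-fold higher and none was lower, beside 9.24% and 3.88% of all genes, and their median log2 ratio was 0.025. Those 3 were Hsp90aa1, the inducible HSP90, on 407 counts in the knockout library against 247 in the control (log2 ratio 0.95), and the inducible HSP70 genes Hspa1a, on 203 against 139 counts (0.76), and Hspa1b, on 107 against 78 counts (0.65). Hspa1a and Hspa1b are near-identical copies, so the division of reads between them is uncertain. The abundant forms of the same chaperones, Hspa8 (648 CPM in the control against 687 CPM in the knockout library) and Hsp90ab1 (946 and 906 CPM), had log2 ratios of 0.08 and -0.06. After the length and GC correction those 3 were still past 1.5-fold, against 4.62% of all genes. Then 1 gene, Hsf2, was 1.5-fold lower, against 3.68% of all genes.

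The heat shock factors Hsf1 and Hsf2 had log2 ratios of -0.16 and -0.10, and Hsf4 -0.26 on 133 and 92 counts; after the correction Hsf2 stood at -0.61. Across 16 heat shock factors and inducible targets the median was 0.13, or 0.033 after the correction. Of them 3 were at least 1.5-fold higher, the same Hsp90aa1, Hspa1a and Hspa1b, against 9.24% of all genes. None was 1.5-fold lower before the correction, against 3.88%. Dnajb1, the inducible HSP40, had 388 counts in the control against 232 in the knockout (log2 ratio -0.47). None of 15 HSP40 genes reached 1.5-fold in either direction, against 9.24% of all genes higher and 3.88% lower. Among 13 HSP70 and HSP110 genes 11 were above the control, against 6049 of all 12559 compared genes. The median of the 13 was 0.24, or 0.095 after the correction. The other BAG genes ranged from -0.32 for Bag5 to 0.05 for Bag1. Of the other small heat shock protein genes, Hspb9, Cryaa and Odf1 had 0 counts in both libraries, and Hspb11 had 59 and 64.

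In the autophagy route that Bag3 and Hspb8 serve, 1 gene stood far from all others. Synpo2, the Z-disc protein that ties the Bag3 complex to the autophagosome, had 360 counts in the control and 12840 counts in the knockout library, a log2 ratio of 5.37. Apart from Bag3 and Hspb8, none of the 14 genes of the list was 1.5-fold lower, against 3.88% of all compared genes. Only Synpo2 was 1.5-fold higher, against 9.24%. The median of the 14 genes was -0.15, or -0.11 after the length and GC correction. Stub1, the ubiquitin ligase CHIP, stood at -0.40, Vps18, a subunit of the membrane tethering complex, at -0.40, Sqstm1, the autophagy receptor p62, at -0.30, and Wipi1 at 0.34. After the correction Stub1 stood at -0.14, Vps18 at -0.33, Sqstm1 at -0.14 and Wipi1 at 0.41.

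Among 16 clients and Z-disc or cytoskeletal partners the median was 0.14 (0.090 after the correction), and 3 were at least 1.5-fold higher, against 9.24% of all genes; after the correction 1 was, Fhl1, against 4.62%. Fhl1, a LIM protein of the sarcomere, had 10298 counts in the control and 20894 in the knockout library (log2 ratio 1.27), close to the ratio of Hspb6. Titin, Ttn, stood at 0.81 and at -0.29 after the correction, and Myoz2, a Z-disc protein of slow fibers, at 0.74 and at 0.55 after the correction. Filamin C, Flnc, had a log2 ratio of 0.24, desmin, Des, -0.06 and Dmpk, the kinase that binds Hspb2, 0.04. After the correction Flnc stood at 0.0085, Des at 0.092 and Dmpk at 0.22.

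**Figure D4:**
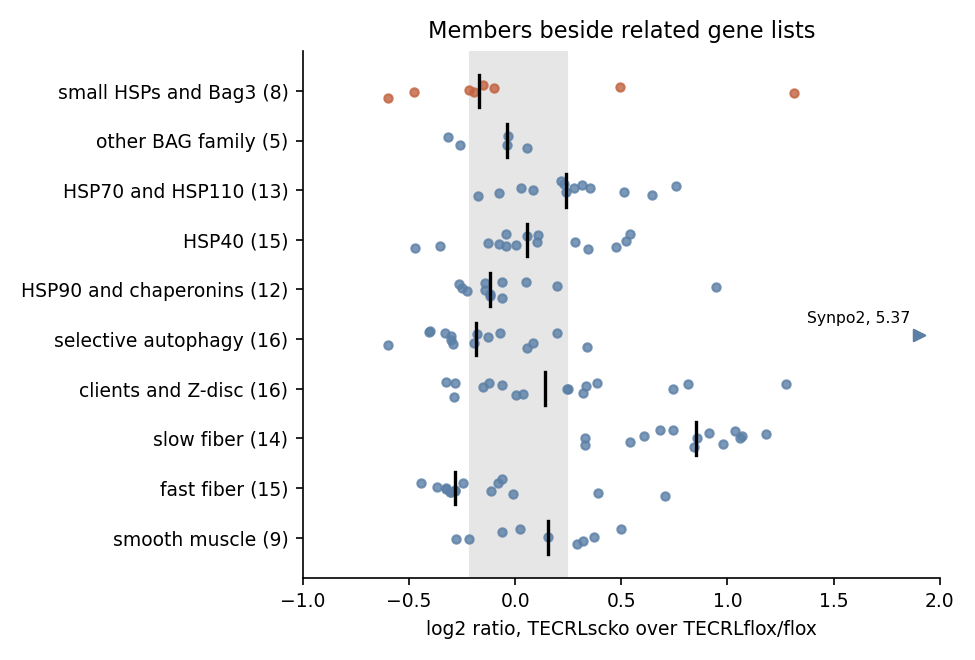
Log2 ratio, TECRLscko over TECRLflox/flox, of each compared gene in 10 lists (number of genes in parentheses), with black lines at the medians and a gray band for the middle 50% of all compared genes. The 8 members spread from -0.60 to 1.32 around a median of -0.17 (0.062 after the length and GC correction), the slow fiber genes center on 0.85, and Synpo2 lies beyond the axis at 5.37.

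Hspb6, Hspb1 and Cryab are also made in smooth muscle of vessels. The 9 smooth muscle markers compared had a median log2 ratio of 0.16. Of them 6 were above the control and 3 below, beside 6049 and 6510 of all 12559 compared genes. None reached 1.5-fold in either direction, against 9.24% of all genes higher and 3.88% lower. Myh11, smooth muscle myosin, stood at 34.5 CPM in the control against 43.1 CPM in the knockout library. Acta2, smooth muscle actin, stood at 49.2 and 42.3 CPM, Smtn, smoothelin, at 141 and 116 CPM and Tagln, transgelin, at 33.1 and 33.6 CPM. By log2 ratio Synm (0.50), Cnn1 (0.37, on 19 and 23 counts), Lmod1 (0.29) and Mylk (0.16) were higher, and Des (-0.06) lower. Hspb6 itself stood at 373 and 929 CPM. The summed level of the 9 markers, which holds desmin and synemin of the fibers, was 3537 CPM and 3580 CPM. The part of smooth muscle in the Hspb6 difference was not tested. The median of 10 endothelial markers was -0.18 and that of 9 satellite cell markers -0.34. Of these 9, 6 were below the control, against 6510 of all 12559 compared genes. Among the 6 were Calcr at -0.69 (56 against 26 counts) and Sdc4 at -0.56 (767 against 434). Chrdl2 stood at -0.63 on 35 against 16 counts, with a fold interval of 0.28 to 1.01 that holds equality. The other 3 were above the control: Vcam1 and Cdh15 at 0.07 and Pax7 at 0.57. Pax7, whose locus drives Cre, had 58 counts in the control against 76 in the knockout library. Tenocyte markers were above the control in 8 of 8 genes, against 6049 of all 12559 compared genes. They had a median of 0.58 and summed levels of 114 CPM and 154 CPM, and their part was not tested either.

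The members have shorter and more GC-rich transcripts than the median gene, and such genes lay lower in the knockout library as a class. The GC content of the longest transcript ran from 51.5% in Hspb3 to 61.7% in Hspb1, above the median of 49.8% over all compared genes, and the length from 773 bases in Hspb2 to 2769 bases in Hspb7, below the median of 3422 bases. In the 1253 genes with the highest GC content the median log2 ratio was -0.17, and in the 1253 with the lowest it was 0.36. After the length and GC correction, 99.6% of all compared genes had a lower log2 ratio than Hspb6, 96.8% than Hspb7, 72.8% than Cryab, 69.6% than Hspb1, 52.9% than Bag3, 50.4% than Hspb3, 23.7% than Hspb2 and 9.45% than Hspb8. Hspb6, Hspb7 and Hspb8 thus stayed near the ends of the order, while Cryab, Hspb1, Bag3 and Hspb3, which before the correction had 39.4%, 32.8%, 27.6% and 24.7% of genes below them, came to lie over its middle, the latter pair just so.

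**Figure D5:**
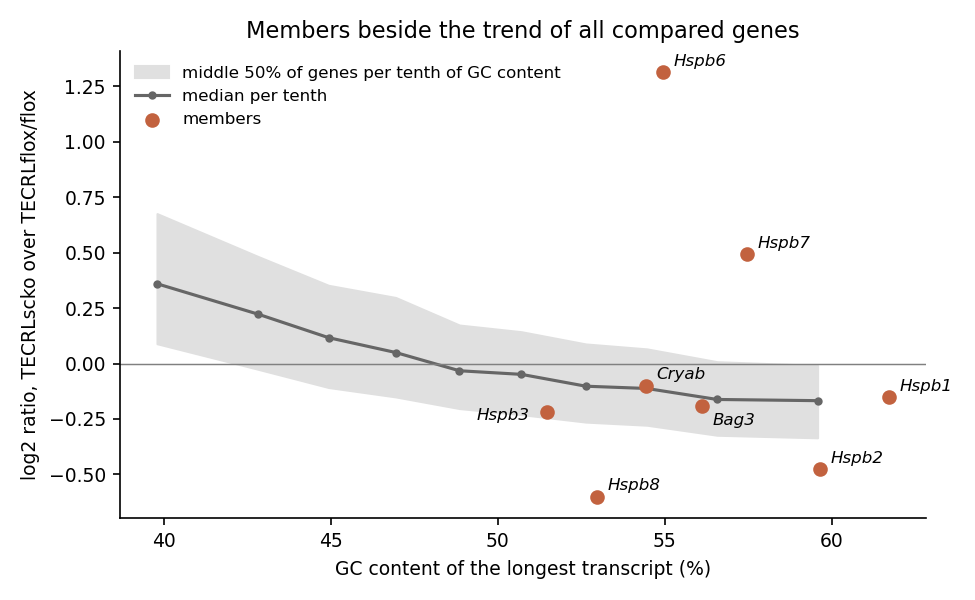
Log2 ratio of the members, TECRLscko over TECRLflox/flox, against the GC content of their longest transcript in percent; the line and gray band are the median and the middle 50% of all compared genes in each of 10 bins of GC content. The line falls from 0.36 to -0.17, and Hspb6 and Hspb7 lie above the band while Hspb8 and Hspb2 lie below it.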

How the data were processed

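Per the labels' protocols, total RNA was made into libraries (VAHTS Universal V6 kit) and read on an Illumina NovaSeq. The submitters' processing notes name HISAT2 2.0.4, StringTie 1.3.0, CASAVA and build GRCm38 without their roles; the counter and strand setting are not stated in the sources used here. Per the file headers, the authors deposited raw counts and FPKM values, 1 column of each per library. TMM factors (edgeR 4.0.16 in R 4.3.3) scaled the counts to CPM. Log2 ratios, knockout over control, carry a pseudocount of 0.5 CPM on both sides; the filter was a mean of 1 CPM, and folds are ratios of CPM without the pseudocount, with exact 95% Clopper-Pearson intervals. Reads carry no molecular identifiers and are not independent molecules, so these intervals cover counting error only. The length and GC correction subtracts lowess fits (span 0.3, statsmodels 0.14.6) on the longest GENCODE M21 transcript, first for its length, then for its GC content. The steps were tested on simulated data. Alternatives were DESeq2 1.42.0 size factors, total counts as the scale, TMM without mitochondrially encoded genes, FPKM, and other pseudocounts and filters. Further alternatives were the length and GC correction, sums with overlapping models and leaving out Bag3. Leaving out Hspb6, alone or with Hspb7, or mitochondrial counts was added after seeing the data. The members and the 16 gene lists were chosen with earlier results of these data known. Named are all members, Tecrl, neighbors of members, and up to 5 genes of each list with the greatest ratio or level; others were chosen after their values were seen.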

Additional observations from a re-analysis of the deposited data

How the results depend on the processing

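No paired analysis was possible because the result comes from no test, with 1 library per group, and no replicate could be left out. The median log2 ratio of the 8 members, -0.17, was -0.24 with total-count scaling and -0.24 with FPKM, and 0.062 after the length and GC correction, where Hspb1 (0.12), Cryab (0.15) and Bag3 (0.0025) also turned; the cause was not tested. The count of members at least 1.5-fold higher became 2 after that correction, with Hspb7, where 579 of 12524 genes were, or 4.62%, against 1161 of 12559; with FPKM 392 of 9503 genes were. The count of members at least 1.5-fold lower became 0 there and with median-centred FPKM, where Hspb8 fell just short. The members' share of counts was 0.322% and 0.386% of non-mitochondrial counts, and without Hspb6 0.229% and 0.206%. Over 11 settings Hspb6 ranged from 1.24 to 1.54, Hspb7 from 0.43 to 0.68, Hspb8 from -0.67 to -0.39 and Hspb2 from -0.54 to -0.21. Of the members Hspb3, the lowest, had the widest counting interval.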
